A study of Homo sapiens with 6 samples.

Results

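YAP and TAZ, the coactivators at the end of the Hippo pathway, were examined through 10 genes of the 21776 in the count table: the coactivator genes YAP1 and WWTR1, the DNA-binding partners TEAD1 and TEAD4, the secreted-factor targets CCN1 and CCN2, the target ANKRD1, and AMOTL2, AJUBA and LATS2, which are regulators of the pathway. The genes were chosen by name, and a row was found for all 10. RNA-seq had been performed on SCC25, an established cell line of human oral squamous cell carcinoma, with 3 libraries under hypoxia and 3 under normoxia. The hypoxic cells were held for 12 h in a gas mixture of 1% O2 and 5% CO2 with N2 as the balance, and the normoxic cells for 12 h in 5% CO2 and air. Cells of both groups carried the wild-type genotype and grew in DMEM/F12 with fetal bovine serum and antibiotics. The labels name SCC25 and a legend in the study's paper names SCC9 for its transcriptome. Nothing states that the libraries came from separate cultures, so p-values measure only the spread between these libraries, which may be technical.

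Hippo signalling is a kinase cascade in which MST kinases activate LATS kinases, and LATS kinases phosphorylate YAP and TAZ, which are then kept out of the nucleus or degraded. Unphosphorylated YAP and TAZ enter the nucleus and bind TEAD proteins, which sit on DNA and drive genes such as CCN1, CCN2 and ANKRD1. Some targets feed back on the cascade, among them LATS2 and AMOTL2. In squamous carcinoma the pathway is known for its part in growth and invasion. RNA levels were measured here, and neither the phosphorylation nor the location of YAP and TAZ was.

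The CCN2 promoter is a textbook site of TEAD binding, and it is shown beside those of ANKRD1 and LATS2 because the 3 genes, all described as YAP targets, differed in level below. The stretches end 1 base before the transcription start and come from RefSeq (build GRCh38.p14), read 5′ to 3′ on the gene's strand, with capitals marking GGAATG, the core letters of the TEAD site. The CCN2 stretch lies at chr6:131951373-131951552 on the minus strand, that of ANKRD1 at chr10:90921088-90921317 on the minus strand and that of LATS2 at chr13:21061587-21061766 on the minus strand.
CCN2: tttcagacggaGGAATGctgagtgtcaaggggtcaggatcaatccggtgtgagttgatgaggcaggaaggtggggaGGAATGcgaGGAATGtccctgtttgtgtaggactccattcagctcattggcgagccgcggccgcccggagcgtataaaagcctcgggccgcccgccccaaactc
ANKRD1: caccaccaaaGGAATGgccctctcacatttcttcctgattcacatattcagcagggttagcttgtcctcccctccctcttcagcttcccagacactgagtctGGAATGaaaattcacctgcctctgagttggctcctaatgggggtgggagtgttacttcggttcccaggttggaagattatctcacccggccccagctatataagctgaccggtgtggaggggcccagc
LATS2: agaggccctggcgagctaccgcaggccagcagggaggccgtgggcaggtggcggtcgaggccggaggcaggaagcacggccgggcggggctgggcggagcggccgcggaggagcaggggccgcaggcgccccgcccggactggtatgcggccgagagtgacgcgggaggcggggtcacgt
The letters GGAATG, searched on both strands in the 250 bases before the start, occurred 3 times for CCN2, 2 times for ANKRD1 and not at all for LATS2. Of 35116 RefSeq promoter windows of the same length, 11.9% held them at least once. The 3 CCN2 matches began 169, 104 and 95 bases before the start, and those of ANKRD1 began 220 and 128 bases before it. YAP1 had 1 match. AMOTL2 and AJUBA, with entries for 2 start sites each, had 1 match at 1 of the 2, and WWTR1 had none at either of its 2. Of the 10 genes, 7 had an entry, and TEAD1, TEAD4 and CCN1 did not. The core of the hypoxia response element, ACGTG, was found in the windows of YAP1, AJUBA and LATS2 and in 18.5% of all windows, and the AP-1 letters TGANTCA in that of ANKRD1 and in 6.57% of all windows. A match describes letters in a window and says nothing of whether a factor was bound.

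The sequencing depth ranged from 29637189 to 37278703 counts per library. Levels are given as FPKM, fragments scaled by gene length and library total, where genes are compared with each other, and as CPM, counts scaled to a library total of 1000000 with TMM factors (trimmed mean of M values), where a gene is compared between conditions. Each change is a log2-fold change of hypoxia over normoxia with its standard error (SE) from edgeR's quasi-likelihood test, with p adjusted by the Benjamini-Hochberg method over all 14255 genes that passed a filter on low counts, and a gene is called at an adjusted p under 0.05. Of the 10 genes 9 passed that filter and ANKRD1 did not. Among the 9, YAP1 was called higher under hypoxia, WWTR1, TEAD4, CCN1 and CCN2 were called lower, and TEAD1, AMOTL2, AJUBA and LATS2 were not called. The 5 called of 9 stand beside a background of 77.8% of all genes tested, with 39.2% called higher and 38.5% called lower, so that a call by itself sets no gene apart in these data. Of the 9 genes 3 (TEAD4, CCN1 and CCN2) were called with a change beyond 1 on the log2 scale, beside 30.4% of all genes. The median log2-fold change of the 9 was -0.07, and that of all genes tested was 0.023. In 6 of the 9 the CPM of the conditions did not overlap, beside 80.5% of all genes.

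In normoxia CCN1 had the highest level of the 10 genes, at a mean of 121 ± 11.5 FPKM (SD, n = 3), followed by YAP1 at 39.1 ± 1.78 FPKM. TEAD4, AMOTL2 and AJUBA came next at means of 26.2, 25.7 and 24.1 FPKM, and the libraries of neighbours in that order overlapped. WWTR1 and TEAD1 also overlapped, at 13.2 and 13.1 FPKM, and CCN2, LATS2 and ANKRD1 followed at 8.41, 4.69 and 0.104 FPKM, each clear of the next. Under hypoxia YAP1 stood first at 44.7 ± 0.62 FPKM, and CCN1, now at 30.4 ± 4.88 FPKM, overlapped AMOTL2 at 27.7 FPKM. AJUBA at 23.7 FPKM and TEAD1 at 13.8 FPKM followed, then TEAD4 and WWTR1, which overlapped at 11.2 FPKM each. LATS2 at 5.12 FPKM had passed CCN2 at 1.81 FPKM, and ANKRD1 was again last at 0.075 FPKM. The widest move in the order was that of TEAD4, from place 3 in normoxia to place 6 under hypoxia, and the levels are drawn in the plot of FPKM by library.

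**Figure D1:**
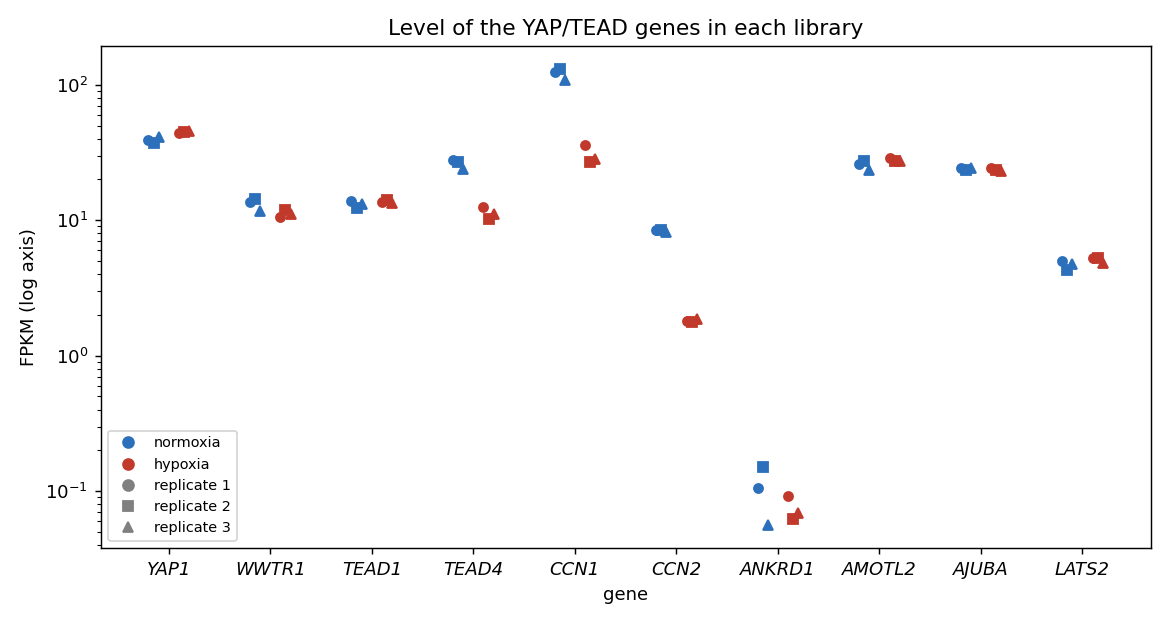
FPKM (log axis) of the 10 genes in each of the 6 libraries, with normoxia in blue, hypoxia in red and a marker shape for each replicate number. CCN1, CCN2 and TEAD4 show separated conditions, with CCN2 at 8.20 to 8.52 FPKM in normoxia and 1.77 to 1.87 FPKM under hypoxia, while ANKRD1 lies at or under 0.151 FPKM in every library.

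The largest changes were in the secreted matricellular factors. CCN2, also called CTGF, which binds growth factors and integrins in the extracellular matrix and is among the most used readouts of YAP and TAZ, had 127, 149 and 141 counts in the hypoxia libraries and 743, 589 and 575 in the normoxia libraries. As CPM these were 4.16, 4.01 and 4.35 under hypoxia against 19.97, 20.6 and 19.4 in normoxia. All hypoxia libraries lay far below all normoxia libraries, and the coefficient of variation within a condition was 4.08% and 2.87%. CCN2 fell by 2.26 on the log2 scale (SE 0.11, edgeR's quasi-likelihood test, adjusted p = 4.89e-12), a mean CPM 4.79-fold lower. A change at least as large in size was seen in 7.60% of all genes tested. In the GENCODE annotation 195 bases of the CCN2 exons overlap AL133346.1 on the opposite strand, and the sources used here do not say whether counting used the strand.

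CCN1, or CYR61, the close relative of CCN2 and likewise a secreted integrin ligand, had 81.0, 59.4 and 64.2 CPM under hypoxia and 283, 309 and 251 CPM in normoxia. Hypoxia replicate 1 was the highest of its condition, 0.26 above the condition's mean on the log2 scale, and still lay far below the lowest normoxia library. CCN1 fell by 2.04 on the log2 scale (SE 0.095, edgeR's quasi-likelihood test, adjusted p = 3.43e-12), a mean CPM 4.12-fold lower, and 9.49% of genes changed by at least as much. Its spread was the widest of the 9 tested genes under hypoxia, with a coefficient of variation of 16.6%. CCN1 stood well above CCN2 in each library. The FPKM of CCN1 over that of CCN2 was 16.8 ± 2.77 (SD, n = 3) under hypoxia and 14.4 ± 1.10 in normoxia. The log2 ratio of CCN2 to CCN1 differed by -0.21 between the conditions with overlapping libraries (two-sided exact permutation test, p = 0.3, adjusted p = 0.3 over 3 paralog ratios), and the sign of that difference turned when 1 was added to each FPKM, to 0.22. Without hypoxia replicate 1 the difference was -0.08.

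ANKRD1, an ankyrin repeat protein of muscle and nuclei and the third of the usual YAP readouts, was barely detected in these cells. It had 5, 4 and 4 counts in the hypoxia libraries and 7, 8 and 3 in the normoxia libraries. The conditions overlapped, and no difference was detectable at this depth. In a fit with no filter its log2-fold change was -0.56 with an SE of 0.89 (edgeR, adjusted p = 0.598). ANKRD1 and CCN2, whose windows both hold the TEAD letters, thus differed in level by a wide margin in either condition.

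The coactivator genes moved by much less. YAP1 had 271, 269 and 279.9 CPM under hypoxia and 243, 240.2 and 257 CPM in normoxia, so the lowest hypoxia library lay above the highest normoxia library. Its mean CPM was 1.11-fold higher, a log2-fold change of 0.15 (SE 0.051, edgeR's quasi-likelihood test, adjusted p = 0.0143), and 87.1% of genes tested changed by at least as much. The call rested on single libraries. The adjusted p was 0.0785 without hypoxia replicate 3, 0.0853 without normoxia replicate 1 and 0.0685 without normoxia replicate 2, and it was 0.101 with no filter on low counts, at log2-fold changes of 0.12, 0.12, 0.12 and 0.11. Under a filter of 10 counts per library the log2-fold change was 0.22 (edgeR, adjusted p = 0.000625). Genes present in both fits shifted by a median of 0.077 under that filter and -0.041 with no filter, about as much as YAP1. GENCODE gives 628 bases of the YAP1 exons an overlap with AP000942.2 on the opposite strand.

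WWTR1, which encodes TAZ, had 60.7, 67.1 and 63.4 CPM under hypoxia and 78.4, 85.3 and 68.9 CPM in normoxia. Normoxia replicate 3 lay close to the highest hypoxia library, without overlap in CPM. In FPKM, which is not scaled by TMM, the conditions overlapped, with hypoxia replicate 2 at 11.96 and normoxia replicate 3 at 11.75. WWTR1 fell by 0.28 on the log2 scale (SE 0.071, edgeR's quasi-likelihood test, adjusted p = 0.00167), a mean CPM 1.22-fold lower, and 75.4% of genes changed by at least as much. The call was lost by limma on log2(FPKM + 1) without a filter, at -0.21 (limma, adjusted p = 0.065). YAP1 and WWTR1 are thought to act largely alike, so their balance was also read within each library. WWTR1 gave 19.4%, 21.1% and 19.6% of their summed FPKM under hypoxia and 25.8%, 27.6% and 22.3% in normoxia. The share was lower in every hypoxia library. The log2 ratio of WWTR1 to YAP1 was -1.998 ± 0.084 (SD, n = 3) under hypoxia and -1.57 ± 0.21 in normoxia, a difference of -0.43 (two-sided exact permutation test, p = 0.1, which is the smallest that 3 against 3 can give, adjusted p = 0.15 over 3 ratios). The 2 genes together came to 55.9 ± 1.05 FPKM under hypoxia and 52.3 ± 0.58 FPKM in normoxia. Divided by each library's TMM factor the sums were 54.98 and 53.1, and the difference fell from 3.63 to 1.85 FPKM, without overlap on either scale. WWTR1 shares 795 exon bases with WWTR1-AS1 on the opposite strand, which had 86 counts over all libraries beside 13802 for WWTR1.

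The TEAD genes split. TEAD1 and TEAD4 encode members of a family of 4 transcription factors that bind the same DNA letters and depend on a coactivator such as YAP or TAZ. TEAD4 had 21.3, 17.0 and 18.9 CPM under hypoxia and 48.1, 47.8 and 41.9 CPM in normoxia. The conditions were wide apart, and TEAD4 fell by 1.27 on the log2 scale (SE 0.086, edgeR's quasi-likelihood test, adjusted p = 3.86e-10), a mean CPM 2.41-fold lower, with 21.6% of genes changing by at least as much. TEAD1 had 127, 129.6 and 126 CPM under hypoxia and 131, 121 and 125 CPM in normoxia. These overlapped, and the log2-fold change was 0.021 with a 95% interval from -0.09 to 0.13 (edgeR, adjusted p = 0.725). The log2 ratio of TEAD4 to TEAD1 was -0.30 ± 0.17 (SD, n = 3) under hypoxia and 1.00 ± 0.12 in normoxia, without overlap (difference -1.29, two-sided exact permutation test, p = 0.1, adjusted p = 0.15 over 3 ratios). In FPKM, TEAD4 stood above TEAD1 in every normoxia library and below it in every hypoxia library.

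The rest of the family moved the other way. TEAD3 had 66.4, 71.2 and 65.7 CPM under hypoxia and 35.6, 33.6 and 39.1 CPM in normoxia, and rose by 0.91 on the log2 scale (SE 0.067, edgeR, adjusted p = 1.19e-09). TEAD2 rose by 0.50 (SE 0.087, edgeR, adjusted p = 4.78e-05), from a mean of 15.9 CPM to 22.6 CPM. Per gene length, TEAD4 made up 46.6 ± 2.91% of the summed TEAD FPKM in normoxia (SD, n = 3) and 20.3 ± 2.04% under hypoxia. TEAD3 made up 20.7 ± 1.84% and 40.8 ± 1.95%. The leading TEAD gene was TEAD4 in each normoxia library and TEAD3 in each hypoxia library. TEAD1 held 23.3% and 24.9%, and TEAD2 9.41% and 14.0%, in normoxia and hypoxia. These shares were computed after the values had been seen and are given without a test. The summed FPKM of the 4 genes was 56.3 ± 1.89 in normoxia and 55.3 ± 1.12 under hypoxia, with overlap. Divided by each library's TMM factor it was 57.2 and 54.4, without overlap. The stacked plot of the TEAD genes shows the sums before that division, where they overlap.

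**Figure D2:**
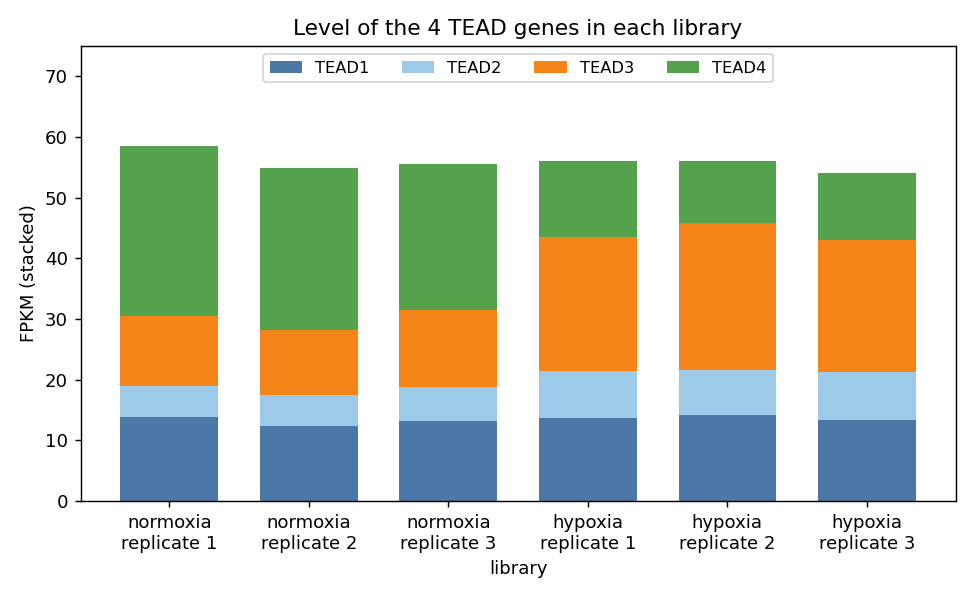
Stacked FPKM of TEAD1, TEAD2, TEAD3 and TEAD4 in each of the 6 libraries, 1 bar per library from 0. The bars have similar heights, with means of 56.3 FPKM in normoxia and 55.3 FPKM under hypoxia, while the TEAD4 segment is wide in normoxia (46.6% on average) and narrow under hypoxia (20.3%).

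AMOTL2, AJUBA and LATS2, which act on the cascade, were not called. AMOTL2, an angiomotin that holds YAP outside the nucleus and is itself a YAP target, had 148, 137 and 140.3 CPM under hypoxia and 135, 148 and 124 CPM in normoxia. Its libraries overlapped and its log2-fold change was 0.062 with a 95% interval from -0.07 to 0.19 (edgeR, adjusted p = 0.372). With a filter of at least 10 counts in every library it was called higher, at 0.14 (edgeR, adjusted p = 0.047). Under that filter the genes present in both fits shifted upwards by a median of 0.077 on the log2 scale. LATS2, the kinase that phosphorylates YAP and TAZ and is induced by them, had 31.8, 31.3 and 29.5 CPM under hypoxia and 30.7, 27.3 and 29.5 CPM in normoxia. The conditions overlapped (log2-fold change 0.080, 95% interval from -0.07 to 0.23, edgeR, adjusted p = 0.327). AJUBA, a LIM domain protein that binds and restrains LATS kinases, had 114, 109 and 108 CPM under hypoxia and 115, 115 and 117 CPM in normoxia. All hypoxia libraries lay below all normoxia libraries by a small margin, and the change was not called (log2-fold change -0.07, 95% interval from -0.18 to 0.04, edgeR, adjusted p = 0.22). On the FPKM scale, which is not scaled by TMM, the AJUBA libraries overlapped. GENCODE places RPL39P5 over 187 exon bases of AMOTL2 and AL132780.3 over 50 of AJUBA, both on the same strand.

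**Figure D3:**
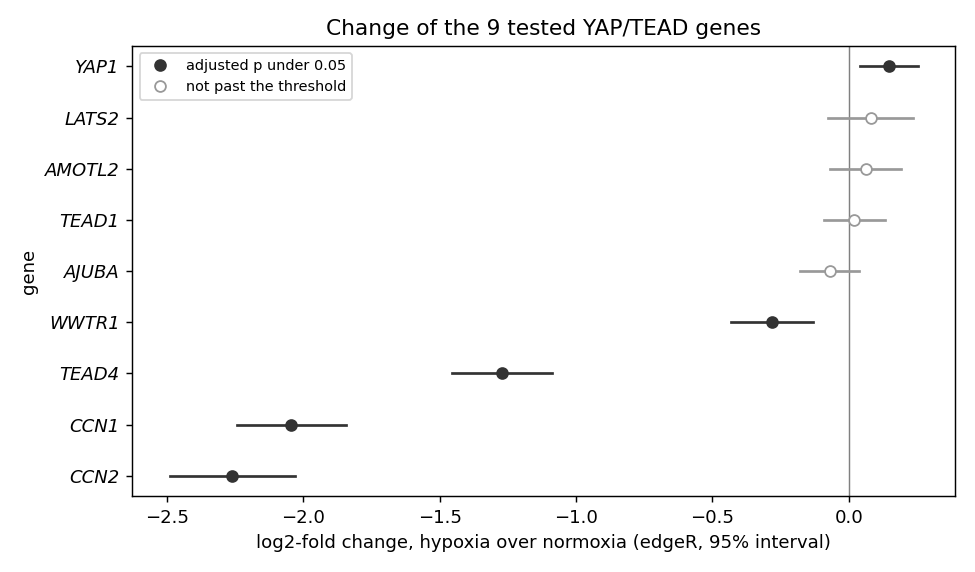
Log2-fold change of hypoxia over normoxia for the 9 tested genes, as points with 95% intervals from edgeR, filled where the adjusted p was under 0.05. CCN2, CCN1 and TEAD4 lie beyond -1, WWTR1 at -0.28 and YAP1 at 0.15, and the intervals of TEAD1, AMOTL2, AJUBA and LATS2 include 0.

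The genes described as targets of YAP and TAZ therefore did not move together: CCN1 and CCN2 fell, AMOTL2 and LATS2 were not called, and ANKRD1 was near the limit of detection. Variation between libraries of one condition was small beside the large changes. Across the 9 tested genes the deviation of a library from its condition's mean reached at most 0.26 on the log2 scale, for CCN1, then 0.17 in size for WWTR1 and 0.16 for TEAD4. For all 5 called genes the normoxia library closest to hypoxia was replicate 3. The same library was closest to hypoxia for 7 of 8 known hypoxia-induced genes, with NDRG1 at 409 CPM against 163 and 140.4 CPM in the other normoxia libraries and a mean of 10052 CPM under hypoxia. The share of all genes tested for which this library was closest was not computed, so these counts have no background. Why it lay closest was not tested. Without normoxia replicate 3 the log2-fold changes were -2.30 for CCN2, -2.14 for CCN1, -1.35 for TEAD4, -0.38 for WWTR1 and 0.16 for YAP1. Each was larger in size, which follows from leaving out the library nearest to hypoxia and is no separate result. The calls were the same.

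The 8 hypoxia-induced genes, taken to check the labels, were all called higher, with a median log2-fold change of 2.75 and VEGFA, the endothelial growth factor, at 2.80. Markers of squamous epithelium were present, and the summed CPM of the 6 was 908 ± 10.5 under hypoxia and 710.5 ± 31.5 in normoxia. KRT14, a basal keratin, was the exception, with 1 count in all 6 libraries together. By CPM the most abundant was CDH1 under hypoxia, at a mean of 479, and EPCAM in normoxia, at 317. By FPKM EPCAM led in both conditions, at means of 164 under hypoxia and 202 in normoxia. Among the 5 tested, CDH1 rose by 1.35, KRT6A, EPCAM and KRT5 fell by 4.12, 0.35 and 0.18 on the log2 scale, and TP63 was not called. Fibroblasts, which are rich in CCN1 and CCN2, would be marked by 6 collagen and stromal genes, whose summed CPM was 19.3 ± 2.56 under hypoxia and 4.27 ± 1.27 in normoxia. Most of it was COL1A1, which rose by 2.26, while COL3A1 had at most 2 counts in any library and was at 0 in all of normoxia. LUM had 27, 9 and 8 counts under hypoxia and 1, 1 and 2 in normoxia. PDGFRB had 24, 19 and 20 against 13, 7 and 11 and was not called. COL1A2 and DCN overlapped between the conditions. The 3 endothelial markers, led by CDH5, summed to 1.42 and 0.451 CPM. The 3 leukocyte markers summed to 5.86 and 1.07 CPM, almost all of it CD14, with PTPRC and CD3E at 2 counts or fewer in each library. These sums were higher where CCN1 and CCN2 fell, and their part in the results was not tested. In bulk RNA, fewer cells with a transcript and less of it per cell cannot be told apart.

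The genes whose profile lay nearest that of CCN2 were found among 9611 tested genes of at least moderate level (a mean log2 CPM of at least 3), by Euclidean distance between log2 CPM centred over the 6 libraries. They were PPIF, a mitochondrial cyclophilin, at a distance of 0.133, WDR43 at 0.153, METTL1, a tRNA methyltransferase, at 0.169, DKC1 at 0.182 and SLC19A1, a folate carrier, at 0.188. Their log2-fold changes were -2.25, -2.33, -2.31, -2.17 and -2.18. The distance includes the difference between the conditions, so values near that of CCN2 follow from the way the genes were picked. None of the 5 belongs to the pathway lists below.

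The rest of the pathway was read from lists of 57 genes, of which 56 had a row and 54 were tested. Of the 54, 22 were called higher, 20 lower and 12 neither, with a median log2-fold change of -0.041, and these counts are near the background of 39.2% higher and 38.5% lower among all genes tested. In the kinase core, SAV1, the scaffold of the MST kinases, rose by 0.56 on the log2 scale, from a mean of 59.1 CPM to 87.2 CPM. LATS1, the partner kinase of LATS2, fell by 0.52 and MOB1A, a coactivator of LATS kinases, fell by 0.30. STK3 and STK4, the MST kinases themselves, and MOB1B were not called, at log2-fold changes of -0.12, -0.095 and -0.032. The core thus had 1 of 6 higher and 2 lower, with a median of -0.11, beside 39.2% and 38.5% of all genes.

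Upstream of the core, 6 of 18 tested genes were called higher and 10 lower, beside 39.2% and 38.5% of all genes, with a median of -0.18. The largest rise was in FAT4, a giant protocadherin, from a mean of 0.499 CPM to 15.4 CPM (log2-fold change 4.88). AMOT, the relative of AMOTL2, had 31.7, 30.3 and 30.5 CPM under hypoxia and 6.13, 5.14 and 7.67 CPM in normoxia, a log2-fold change of 2.29, and LIMD1, a LIM protein like AJUBA, rose by 1.36. TAOK1, a kinase acting on MST, rose by 0.26. NF2, which encodes the tumour suppressor merlin and brings LATS to the membrane, fell by 1.31, WWC1 (KIBRA) by 0.89 and FRMD6 by 0.65. WTIP and DCHS1 had too few counts to be tested. Within the angiomotins AMOTL2 remained the most abundant, at 58.3% of their summed FPKM under hypoxia and 55.9% in normoxia, while AMOT made up 8.19% and 1.69%, and AMOTL1, called lower at -0.33, 33.5% and 42.4%. Among 4 ubiquitin ligases, SIAH2, known to mark LATS2 for degradation, rose by 0.22, a call with an adjusted p of 0.0509 without normoxia replicate 1 (edgeR). ITCH, known to act on LATS1, fell by 0.19, with an adjusted p of 0.0649 under the filter of at least 10 counts. BTRC and FBXW11, which act on phosphorylated YAP and TAZ, were not called, at log2-fold changes of 0.13 and 0.024, though BTRC was called under that filter at 0.20.

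Among cofactors of the TEAD proteins, VGLL4, which competes with YAP for TEAD, rose by 0.54 on the log2 scale, from a mean of 36.7 CPM to 53.2 CPM. VGLL3 rose by 1.32, from 1.22 to 3.14 CPM, and VGLL2 fell by 1.81, from 1.76 to 0.502 CPM, both near the lower end of what was tested. VGLL1 was not called (log2-fold change -0.46). With TEAD2 and TEAD3, 4 of these 6 genes were called higher and 1 lower, with a median of 0.52. Among all genes 77.8% were called, 39.2% higher.

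The 17 other genes often listed as a YAP and TAZ signature, chosen by name, were called higher in 8 cases and lower in 6, with a median log2-fold change of 0.18, beside 77.8% of all genes called, 39.2% higher and 38.5% lower. IGFBP3, which binds insulin-like growth factors, rose by 3.39, RBMS3 by 3.23, CCDC80 by 2.08 and PTPN14, a phosphatase that restrains YAP, by 0.95. RBMS3 had only 13, 8 and 13 counts in normoxia, and its mean went from 0.356 to 3.38 CPM, so the size of its rise rests on a low level. FJX1 fell by 2.44, GADD45A, a gene of the stress response, by 1.28, FOXF2 by 0.81 and AXL, a receptor tyrosine kinase, by 0.65. Of the 8 genes named, only FJX1 changed downwards by as much as CCN1 and CCN2. In the wider CCN family, CCN5, or WISP2, had no count in any normoxia library and 41, 55 and 53 counts under hypoxia, at least 15.5-fold higher when 3 counts are taken as the floor in each normoxia library. CCN4, or WISP1, had 37, 46 and 66 counts under hypoxia and 0, 0 and 5 in normoxia. The hypoxia libraries lay above all normoxia libraries, and the size of the change is not given, because the normoxia level was near the limit of detection and the fitted log2-fold change ran from 4.05 to 8.63 with each library left out, the highest without normoxia replicate 3. CCN3 was not called (log2-fold change -0.60) and CCN6 had no row. CCN4 and CCN5 reached at most 0.825 FPKM, against at least 1.77 FPKM for CCN2.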

How the data were processed

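Total RNA of SCC25 cells was made into libraries with an mRNA kit per the labels. The authors deposited whole-number counts per gene for 21776 genes, not normalized, and FPKM. The FPKM of 21775 genes followed from the counts, the library totals and a gene length within a relative error of 1e-05. The aligner and annotation are not given in the sources used here. The submitters' processing notes name the mouse builds GRCm38 and mm10, while the tables hold human symbols, so the build behind the counts is unsettled.

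Genes were filtered (filterByExpr), normalized by TMM and tested with edgeR 4.0.16 in R 4.3.3 (quasi-likelihood F test, hypoxia against normoxia, Benjamini-Hochberg over all genes tested). Alternatives were DESeq2 1.42.0, its size factors, other filters, a replicate block, each library left out, and limma 3.58.1 on log2(FPKM + 1) or log2(FPKM + 0.1). Ratios were tested with scipy 1.17.1. The scripts were tested on simulated data. At 29637189 to 37278703 counts per library, 3 counts correspond to 0.0806 to 0.105 CPM, taken as the limit of detection, which covers counting error only. The biological coefficient of variation was 0.0685. Libraries of a condition differed by more than sampling noise, with a chi-square of 5.11 to 11.5 per gene, and each was kept as a replicate.

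The members and lists were chosen with earlier results of these data known. Named were all members, all genes of lists of up to 6, and of longer lists the 4 called higher and 4 called lower with the largest change, with AMOTL1 and the summed levels of gene families added after their values were seen. One gene that the rule would name is not reported here. Exon overlaps were read from GENCODE v29, promoters from RefSeq.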

Additional observations from a re-analysis of the deposited data

How the results depend on the processing

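CCN1, CCN2 and TEAD4 were called lower under every alternative run, with log2-fold changes of -2.19 to -1.96, -2.30 to -1.74 and -1.36 to -1.15. TEAD1, AJUBA and LATS2 were called under none. The number of the 10 genes called higher was 1 as reported, 0 with no filter on low counts, 2 under the filter of 10 counts per library and 0 with a log2-fold change beyond 1, and it ran from 0 to 1 when each library was left out. The log2-fold change of YAP1 was 0.11 with no filter, 0.22 under the filter of 10 counts and 0.19 by limma on log2(FPKM + 1), and ran from 0.12 to 0.16 with each library left out. At 0.15 it, like WWTR1 at -0.28, was no call under a threshold of 1. AMOTL2 became a call at 0.14 with at least 10 counts in every library. Against the main fit, shared genes shifted by a median of 0.077 under that filter and -0.041 with no filter. YAP1 and AMOTL2 moved by about as much. WWTR1 was no call by limma on log2(FPKM + 1) without a filter, at -0.21. With the threshold of 1, 4338 genes were called, 2840 higher and 1498 lower, a share of 65.5% higher against 50.5% of the calls without it, and in the pathway lists 9 were higher and 4 lower. The log2 ratio of CCN2 to CCN1 turned to a difference of 0.22 with 1 added to each FPKM, and the difference was -0.08 without hypoxia replicate 1. The causes of these changes were not tested, other than that the threshold and the filters set how many genes can be called.

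Libraries with the same number did not deviate together, with correlations of 0.018, -0.069 and 0.0012 over genes. No pairing by number was thus detected, which does not tell whether such libraries were handled together. A fit with the replicate block called 10875 genes, 5456 higher and 5419 lower, against 11090 without it. It changed the call of none of the 9 tested genes, with YAP1 at 0.15 (edgeR, adjusted p = 0.0356). Depth limits ANKRD1, WTIP, DCHS1 and KRT14, which had too few counts to be tested.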
